A study of Homo sapiens with 18 samples.

Results

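In Ccd18-Co, a cell line of human colon fibroblasts profiled by bulk ATAC-seq (sequencing of DNA that a transposase can reach), 1310 of the 334857 consensus peaks were more open in every library of cells that had been through cytokine pulses than in any library of cells that had not. These peaks were chosen by a rule on the measured counts. Counts per 1000000 (CPM, a peak's count scaled by the library's counts in all peaks) had to be higher in each of 12 conditioned libraries than in the highest of the 6 unstimulated ones, the mean CPM of the 12 had to be at least 2 times the mean of the 6, and the 18 counts had to sum to at least 100. Of the 181571 peaks with at least 100 counts, 0.721% met the rule. The mirrored rule, which asks for peaks closed in all 12 conditioned libraries, was met by 88 peaks, or 0.0485%. Since the rule used the levels of all 3 groups, the differences from unstimulated cells are given below as a description without a test, and only the difference between the conditioned groups was tested. The rule did not compare these groups, but by holding each above the unstimulated libraries it bounds how far they can differ.

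The unstimulated group received no cytokine, and its labels name no solvent, while the methods of the study state an equal solvent dilution in all groups of such treatments. The DMSO group received 3 pulses of TNF, OSM and IL-17A at 10 ng/ml each with IL-1β at 0.1 ng/ml, every pulse lasting 72 h in serum-free medium with 96 h of recovery, then 1 week of rest and 5 days of the solvent DMSO. The belinostat group had the same pulses and rest, and then 5 days of belinostat, an inhibitor of histone deacetylases, at 250 nM by the labels. Cells were collected 2 weeks after that treatment, so that a peak open in both conditioned groups was open long after the last cytokine. No library was taken during or just after the pulses, so whether a peak opened then or later was not measured. All groups are 1 cell line grown in plastic wells, without immune or epithelial cells. The labels number 6 libraries per group without saying whether they came from separate cultures, and p-values then measure only the spread between these libraries.

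Open chromatin marks stretches of DNA from which nucleosomes have been moved aside, usually by bound transcription factors, at gene starts and at enhancers further away. Fibroblasts exposed to inflammatory cytokines activate factors of the NF-kB, AP-1, CEBP and STAT families, which can open enhancers, and some enhancers stay accessible after the signal has gone. Such lasting sites are one form of inflammatory memory. Histone deacetylases remove acetyl groups from histone tails, a mark that accompanies active enhancers, and their inhibitors raise acetylation. In a bulk library, more cells with an open site and more cutting at the site in each cell cannot be told apart.

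The labelled cell type was checked at gene starts. All 12 fibroblast marker genes had a peak within 500 bases of a start, with a median of 30.8 CPM in unstimulated, 27.2 CPM in DMSO and 26.3 CPM in belinostat libraries. Over 7 smooth muscle markers the median was 15.6, 16.5 and 17.5 CPM in the same order. It was 4.42, 5.12 and 5.61 CPM over 10 epithelial markers, 2.96, 3.55 and 4.57 CPM over 8 endothelial markers, 2.08, 2.99 and 4.01 CPM over 9 leukocyte markers and 1.324, 2.06 and 1.86 CPM over 8 markers of glia and neurons. KRT20, CDX1, MS4A1, SPI1 and ELAVL3 had no peak at a start. Summed over its list, the fibroblast level ran from 439 to 468 CPM in unstimulated, 375 to 429 CPM in DMSO and 362 to 445 CPM in belinostat libraries, so that the DMSO libraries lay below the unstimulated ones. The smooth muscle sums overlapped, from 108 to 123, 104 to 122 and 111 to 133 CPM. The leukocyte level ran from 38.8 to 45.8 CPM in unstimulated, 42.6 to 53.8 CPM in DMSO and 38.0 to 53.9 CPM in belinostat libraries, and the endothelial level from 26.5 to 35.9, 36.5 to 39.5 and 33.5 to 51.2 CPM. The epithelial sums ran from 55.7 to 70.6, 53.6 to 71.0 and 64.2 to 72.1 CPM, and those of glia and neurons from 38.7 to 45.6, 39.6 to 48.2 and 43.1 to 47.2 CPM. Apart from the endothelial list in DMSO libraries, the sums of these 4 lineages overlapped between unstimulated and conditioned cells, and their part in the results was not tested.

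The sequences of 8 peaks show what lies under the strongest cases: 3 of the 8 with the highest CPM (PTGS2, HSD11B1 and NRCAM), 4 of the 8 with the largest rise (2 at CPXM2, a site at LINC01093 and a site near MAS1L), and 1 of the sites that were lower after belinostat (LRMDA). They are the central bases of each peak, at most 200, on the plus strand of hg38, with annotated exons left out. Capitals mark matches, on either strand, to any of 14 short words that transcription factors are known to bind: TGANTCA for the AP-1 dimers of FOS and JUN, TGACGTCA for CREB and ATF factors, GGANTTTCC for NF-kB, TTGCNNAA for the CEBP family, CATTCCA for the TEAD factors of the Hippo pathway, TGTGGTT for RUNX factors, CCGGAAG for the ETS family, the E-box CAGATG for basic helix-loop-helix factors such as TWIST, GACCACCCA for the GLI factors of hedgehog signalling, AGTGAAAG for PRDM1, TTCCNGGAA for STAT factors, TGTTTAC for forkhead (FOX) factors, AGATAA for GATA factors and TTGGCA as one side of the NFI site. The AP-1 word allows any base at its centre, while FOS and JUN dimers mainly bind forms with C or G there. Every AP-1 share given below counts all centre bases together, and the forms were not counted apart. A match is a match of letters and not a measured binding site, words were counted separately where they overlapped, and no matches overlapped in the sequences printed.
CPXM2 intron, chr10:123858197-123858396: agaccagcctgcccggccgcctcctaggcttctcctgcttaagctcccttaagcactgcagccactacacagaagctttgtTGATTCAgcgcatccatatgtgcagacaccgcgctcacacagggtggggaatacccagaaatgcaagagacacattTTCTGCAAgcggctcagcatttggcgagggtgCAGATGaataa
CPXM2 intron, chr10:123808987-123809186: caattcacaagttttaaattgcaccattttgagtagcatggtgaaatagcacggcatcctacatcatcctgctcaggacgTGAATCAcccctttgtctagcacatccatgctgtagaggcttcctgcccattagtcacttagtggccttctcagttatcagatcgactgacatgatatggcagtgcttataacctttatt
LINC01093, chr4:184897057-184897256: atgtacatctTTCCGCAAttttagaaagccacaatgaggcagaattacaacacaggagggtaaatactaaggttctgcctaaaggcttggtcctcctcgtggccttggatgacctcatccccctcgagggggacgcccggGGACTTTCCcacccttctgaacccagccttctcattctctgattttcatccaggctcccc
near MAS1L, chr6:29516272-29516471: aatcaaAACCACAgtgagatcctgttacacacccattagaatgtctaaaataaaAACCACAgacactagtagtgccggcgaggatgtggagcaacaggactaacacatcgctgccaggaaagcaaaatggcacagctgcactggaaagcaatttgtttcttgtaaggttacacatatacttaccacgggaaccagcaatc
PTGS2, chr1:186680438-186680600: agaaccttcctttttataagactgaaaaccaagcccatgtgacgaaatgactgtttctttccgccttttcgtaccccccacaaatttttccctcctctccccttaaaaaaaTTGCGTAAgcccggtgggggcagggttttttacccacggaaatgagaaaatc
HSD11B1, chr1:209704657-209704845: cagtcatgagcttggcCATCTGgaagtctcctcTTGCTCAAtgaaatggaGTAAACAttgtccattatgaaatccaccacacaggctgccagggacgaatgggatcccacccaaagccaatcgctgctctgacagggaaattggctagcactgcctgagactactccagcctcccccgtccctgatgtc
NRCAM intron, chr7:108358682-108358881: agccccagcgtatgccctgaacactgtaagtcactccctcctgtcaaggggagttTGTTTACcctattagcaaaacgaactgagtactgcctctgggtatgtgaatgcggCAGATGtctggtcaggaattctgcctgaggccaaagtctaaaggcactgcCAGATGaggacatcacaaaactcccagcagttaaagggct
LRMDA intron, chr10:75613084-75613283: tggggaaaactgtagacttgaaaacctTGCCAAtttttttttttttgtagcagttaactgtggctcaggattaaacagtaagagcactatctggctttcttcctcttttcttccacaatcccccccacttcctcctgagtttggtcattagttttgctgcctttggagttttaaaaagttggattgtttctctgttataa

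The first CPXM2 site holds an AP-1, a CEBP and an E-box word, and the second an AP-1 word. These AP-1 words are TGATTCA and TGAATCA, without C or G at the centre. The LINC01093 site holds an NF-kB and a CEBP word, the site near MAS1L a pair of RUNX words, the stretch before PTGS2 a CEBP word, and the HSD11B1 site a CEBP, an E-box and a FOX word. NRCAM has a FOX word and a pair of E-box words, and the LRMDA site only an NFI word. In the central 200 bases of all 1310 peaks the AP-1 word stood in 10.0%, the CEBP word in 6.56%, the E-box word in 19.2%, the FOX word in 3.13%, the RUNX word in 4.96%, the NFI word in 9.16% and the NF-kB word in 0.534%. Over all 181571 peaks with at least 100 counts these shares were 17.1%, 10.7%, 18.2%, 5.21%, 5.51%, 11.4% and 1.05%, in the same order.

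Together the 1310 peaks took a small part of each library. Their summed accessibility was 720, 1133 and 1193 CPM as the lowest, median and highest of the 6 unstimulated libraries. It was 2245, 2650 and 2905 CPM in the DMSO libraries and 2222, 2853 and 3502 CPM in the belinostat libraries. The gap between unstimulated and conditioned cells follows from the rule, while the ranges of the DMSO and belinostat libraries overlapped, with belinostat 4 and 5 (3502 and 3422 CPM) above every DMSO library. The median peak had 0.568 CPM in unstimulated, 1.49 CPM in DMSO and 1.70 CPM in belinostat libraries.

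The share of a library's counts that fell into the weaker 50% of all peaks moved the same way. It was 4.49% to 7.73% in unstimulated, 8.35% to 12.0% in DMSO and 8.26% to 15.5% in belinostat libraries. Its lowest value within each group lay in the library with the lowest summed CPM of the 1310 peaks, unstimulated 6, DMSO 3 and belinostat 1, and its part in the result was not tested. Belinostat 1 set the lowest of the 12 conditioned values for 313 of the peaks and DMSO 3 for 241. Without belinostat 1 the rule found 2324 peaks, without DMSO 3 it found 2016, and without unstimulated 5 it found 2096.

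The number of peaks depended on how libraries were scaled. With totals scaled by TMM (trimmed mean of M values over all peaks), 489 of the 1310 still met the rule. With TMM over the weaker 50% of peaks 34 did, and with a loess curve that levels each library across peak strength 307 did. Of the 19 peaks named below for their ratio, their CPM or the small p-value of their belinostat change, 10 met it with TMM, 5 with TMM over the weaker 50% of peaks and 17 with loess. The 5 were the strongest CPXM2 peak, the NRCAM peak and 3 peaks at FAM110B. All 43 peaks examined one by one, not all of which are named here, kept a conditioned mean above the unstimulated mean under the last 2 scalings. The ratio was 1.20 or more with the weaker peaks and 1.54 or more with loess.

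**Figure D1:**
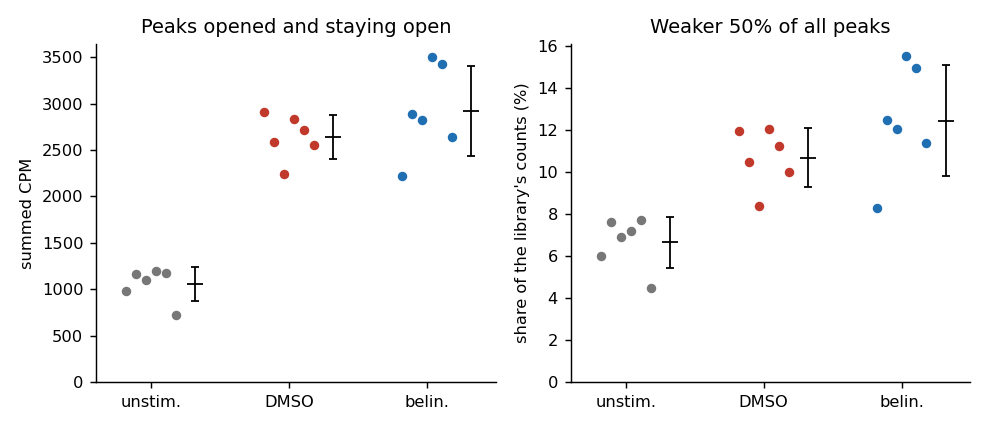
Left, CPM summed over the 1310 peaks in each of the 18 libraries; right, the percent of each library's counts that fell into the weaker 50% of all 334857 peaks. Points are libraries, bars the mean ± SD of 6 libraries per group. Both measures were lowest in the unstimulated group, where the summed CPM ranged from 720 to 1193 and the weak-peak share from 4.49% to 7.73%.

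Most of the 1310 peaks were weak, and a few were strong. Their counts over 18 libraries ran from 100 to 11613 with a median of 149, against a median of 233 over all peaks with at least 100. The ratio of the conditioned to the unstimulated mean ran from 2.00 to 12.5 with a median of 2.75, and was at least 3 in 460 peaks, at least 4 in 73 and at least 5 in 17. The lowest conditioned library exceeded the highest unstimulated one by less than 1.1 times in 593 peaks and by 1.5 times or more in 67. In 133 peaks at least 1 unstimulated library had a count of 0, and no peak was at 0 in all 6. The median coefficient of variation of a peak was 37.6% between unstimulated libraries, 25.04% between DMSO libraries and 30.4% between belinostat libraries, against 24.5%, 25.6% and 28.7% over all peaks with at least 100 counts.

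At the thresholds the rule cut through a continuous range. The 3 peaks just inside the ratio had ratios of 2.00, 2.01 and 2.01, and the 3 just outside had 1.9994, 1.9993 and 1.99899. The 3 just inside the count minimum had 100 counts each and the 3 just outside 99. Just inside the overlap criterion the lowest conditioned library was 1.0005, 1.0008 and 1.0008 times the highest unstimulated one, and just outside 0.9999, 0.9998 and 0.9997 times. The overlap criterion was the one that decided: 19729 peaks met the other criteria and failed it alone, against 1283 that failed the count minimum alone and 190 that failed the ratio alone.

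The 8 peaks of highest CPM lay at or nearest to different genes. PTGS2 encodes cyclooxygenase-2, the inducible enzyme of prostaglandin synthesis, and the peak at its start (chr1:186680002-186681072) is centred 114 bases from it. Its accessibility was 6.96, 7.72 and 9.67 CPM as the lowest, median and highest unstimulated library. The DMSO libraries had 17.4, 22.2 and 23.3 CPM and the belinostat libraries 17.1, 19.3 and 20.6 CPM. All 12 conditioned libraries thus lay at least 1.77 times above the highest unstimulated one, and the conditioned groups overlapped. Scaled by the weaker 50% of peaks the ratio of 2.57 became 1.52.

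HSD11B1 encodes the enzyme that turns inactive cortisone into cortisol inside cells. A peak at one of its annotated starts (chr1:209704523-209704989) had 6.25, 7.10 and 9.45 CPM in unstimulated libraries, 18.6, 20.0 and 21.6 CPM in DMSO libraries and 13.0, 15.0 and 17.1 CPM in belinostat libraries, so that the 3 groups did not overlap. Its ratio of 2.36 became 1.39 when scaled by the weaker 50% of peaks. A second peak in an intron of the gene (chr1:209720331-209721193), named after its values were seen, had 1.0997, 2.35 and 2.83 CPM in unstimulated, 8.18, 9.95 and 11.8 CPM in DMSO and 7.62, 8.82 and 9.87 CPM in belinostat libraries. There the conditioned groups overlapped and the ratio to unstimulated cells was 4.28. Over a window of 30 kb before to 60 kb after the most upstream start, 3 of 11 peaks with at least 100 counts met the rule, and the other 8 had ratios of 1.53 to 4.62, all above 1.

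NRCAM encodes a cell adhesion protein of the immunoglobulin superfamily known from neurons. The peak in its intron (chr7:108358514-108359048) had 3.88, 4.46 and 5.65 CPM in unstimulated libraries, 14.5, 16.1 and 17.4 CPM in DMSO libraries and 14.6, 15.7 and 17.3 CPM in belinostat libraries. The conditioned groups covered the same range, 2.57 times or more above the highest unstimulated library. PTGFR encodes the receptor of prostaglandin F2α. The peak at its start (chr1:78490714-78492112) had 4.66, 6.22 and 7.80 CPM in unstimulated, 10.3, 11.9 and 13.3 CPM in DMSO and 12.5, 14.4 and 16.1 CPM in belinostat libraries. Here the conditioned groups overlapped, with the higher median in belinostat libraries.

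KATNAL2 encodes a protein related to the microtubule-severing katanins. The peak in its intron (chr18:46965332-46966570) had 2.93, 5.87 and 6.32 CPM in unstimulated, 8.12, 10.1 and 14.1 CPM in DMSO and 7.83, 11.8 and 17.3 CPM in belinostat libraries. HEPHL1 encodes a copper-dependent ferroxidase. The peak near its start (chr11:94020548-94021565) had 3.36, 4.50 and 7.25 CPM in unstimulated, 9.97, 11.5 and 13.0 CPM in DMSO and 8.37, 10.9 and 12.6 CPM in belinostat libraries. In both the conditioned groups overlapped, and the lowest conditioned library was 1.24 and 1.15 times the highest unstimulated one.

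The remaining pair among the 8 peaks of highest CPM lay outside genes. One was in the short arm of chromosome 21 (chr21:8244683-8246772), more than 2 Mb from any protein-coding start, with 31.7, 62.4 and 70.8 CPM in unstimulated, 73.5, 109 and 122 CPM in DMSO and 78.7, 123 and 167 CPM in belinostat libraries. The other lay beside the centromere of chromosome 16 (chr16:46391143-46391389), with 3.06, 6.27 and 7.58 CPM in unstimulated, 8.12, 11.3 and 15.9 CPM in DMSO and 9.98, 13.2 and 19.0 CPM in belinostat libraries. Short arms of acrocentric chromosomes and the flanks of centromeres hold many near-identical copies, so these values are uncertain as values of 1 locus; repeat content was not measured. The first 20 Mb of the acrocentric chromosomes held 29 of the 1310 peaks, or 2.21%, against 0.508% of all peaks with at least 100 counts.

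**Figure D2:**
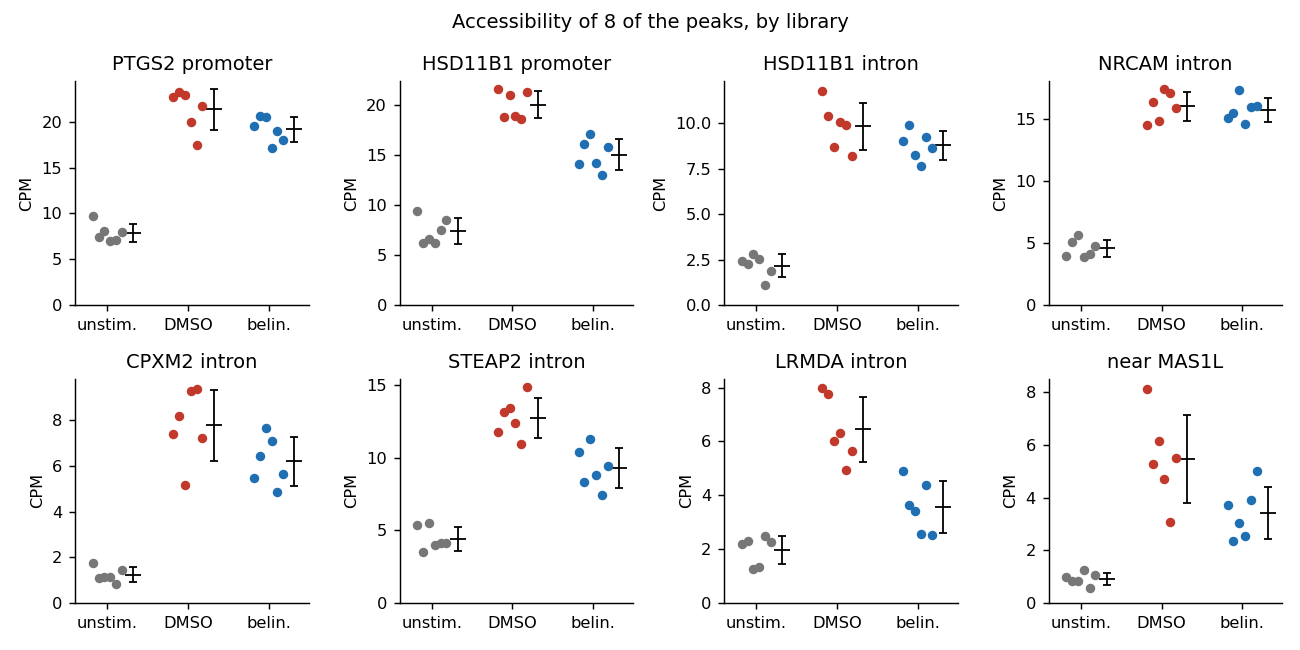
CPM (y axis, from 0) of 8 of the peaks in the 18 libraries, by group; points are libraries and bars the mean ± SD of 6. In each panel the 12 conditioned libraries lie above the 6 unstimulated ones, as the rule requires, while the place of belinostat against DMSO differs from peak to peak: NRCAM covers the same range in both (14.5 to 17.4 CPM and 14.6 to 17.3 CPM) and the HSD11B1 site at the annotated start does not (18.6 to 21.6 CPM and 13.0 to 17.1 CPM).

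Of the 8 largest rises among peaks with at least 200 counts, 4 lay in or nearest to FAM110B and 2 in CPXM2. CPXM2 encodes a secreted member of the carboxypeptidase X family. Its peak chr10:123857828-123858764, in an intron 28870 bases from the nearest start, had 0.825, 1.14 and 1.76 CPM in unstimulated, 5.18, 7.79 and 9.40 CPM in DMSO and 4.87, 6.04 and 7.66 CPM in belinostat libraries, a ratio of 5.67. A second intronic peak (chr10:123808941-123809231) had 0.412, 0.460 and 0.799 CPM in unstimulated, 1.74, 2.42 and 4.21 CPM in DMSO and 1.72, 2.21 and 3.72 CPM in belinostat libraries. In both the lowest conditioned library was more than 2 times the highest unstimulated one. In all, 6 of 26 peaks between 30 kb before and 250 kb after the CPXM2 start met the rule, with ratios of 2.95 to 5.67, and they lay 61.3 to 196 kb inside the gene. The other 20 peaks of that window had ratios from 1.07 to 4.42, the lowest near the start and outside the gene.

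FAM110B encodes a protein of the centrosome. All 6 peaks with at least 100 counts in a stretch of 51876 bases at its far end met the rule, the outermost of them (chr8:58220820-58221341) from 0.266, 0.628 and 0.881 CPM in unstimulated to 2.10, 3.59 and 4.71 CPM in DMSO and 2.44, 3.22 and 3.63 CPM in belinostat libraries. The ends of that stretch were set by peaks that met the rule. FAM110B had 15 peaks with at least 100 counts in its body or within 10 kb. The 5 of these that met the rule had ratios of 3.20 to 5.25. Their summed accessibility was 2.53, 4.33 and 5.16 CPM as the lowest, median and highest unstimulated library, 16.8, 18.3 and 19.6 CPM in DMSO and 13.9, 15.5 and 19.6 CPM in belinostat libraries. ADGRL2 encodes a latrophilin, an adhesion receptor coupled to G proteins. Of its 4 peaks, chr1:81440819-81441170 had the largest ratio of all 1310, 12.5, from 0, 0.137 and 0.360 CPM in unstimulated libraries to 1.52, 2.79 and 2.85 CPM in DMSO and 0.806, 1.33 and 1.93 CPM in belinostat libraries. The size of that ratio rests on 8 counts in the 6 unstimulated libraries together.

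The other large rises lay in non-coding sequence. The peak at a start of the non-coding genes LINC01093 and ENSG00000289197 (chr4:184896829-184897483), 70338 bases from the start of ACSL1, which encodes an enzyme that activates long-chain fatty acids, had 0.275, 0.520 and 1.23 CPM in unstimulated, 2.77, 3.39 and 4.50 CPM in DMSO and 1.57, 2.66 and 4.06 CPM in belinostat libraries. The intergenic peak chr6:29516142-29516601 lies 28415 bases from the start of MAS1L, which encodes a receptor related to MAS1. It had 0.550, 0.918 and 1.23 CPM in unstimulated, 3.08, 5.38 and 8.14 CPM in DMSO and 2.36, 3.37 and 5.02 CPM in belinostat libraries.

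**Figure D3:**
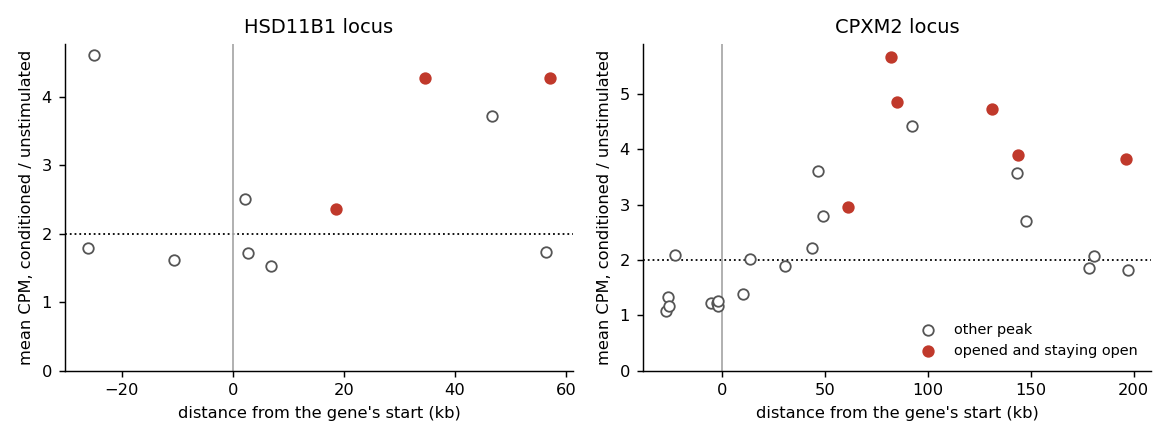
Ratio of the mean CPM of 12 conditioned to 6 unstimulated libraries (y axis) for every peak with at least 100 counts, against the distance of its centre from the most upstream start of HSD11B1 (left) and CPXM2 (right) in kb, along the direction of transcription. Filled points met the rule, open points did not, and the dotted line is a ratio of 2. The 6 filled CPXM2 peaks lie 61.3 to 196 kb inside the gene with ratios of 2.95 to 5.67, and open points above the line failed because single libraries overlapped.

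Counted over genes, the peaks were dispersed. Of the 1310, 799 lay in the body or within 10 kb of a protein-coding gene and 511 in none, and 140 were centred within 1 kb of a protein-coding start. Among 20033 protein-coding genes 773 had 1 such peak, 56 had 2 and 27 had 3 or more. PTPRN2 had the most, 10, followed by CPXM2 with 6 and by BRD9, CACNA1B, FAM110B and LRMDA with 5 each. PTPRN2, which encodes a phosphatase-like protein of secretory vesicles, is 1048768 bases long and had 149 peaks with at least 100 counts, and CACNA1B, which encodes a neuronal calcium channel subunit, had 34. BRD9 encodes a subunit of a chromatin remodelling complex. It overlaps ZDHHC11, which had 4 peaks with the same lowest and highest ratio, 2.30 and 2.59. A peak near both genes was counted for each. All the peaks of PTPRN2, BRD9 and CACNA1B lay within 5 Mb of a chromosome end, with a median GC content of 58.6%, 58.4% and 56.3%, and those of CPXM2, FAM110B and LRMDA did not, with a median GC content of 44.2%, 41.5% and 43.3%. The summed PTPRN2 peaks had 5.19, 9.30 and 11.3 CPM in unstimulated, 16.7, 20.4 and 25.8 CPM in DMSO and 17.0, 23.8 and 30.3 CPM in belinostat libraries.

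Most peaks stood alone. When peaks at most 100 kb apart were joined, 913 had no neighbour of the set, 397 fell into 154 clusters of 2 or more, and 12 clusters held 5 or more. One on chromosome 15 near GOLGA6L6 and one on chromosome 5 across ZDHHC11B, ZDHHC11, BRD9 and TPPP held 9 each. In these the other peaks with at least 100 counts had median ratios of 2.02 and 1.88, so that most peaks of these stretches were higher in conditioned cells. Near-identical copies were not measured in these stretches, so how far the 9 peaks of each are separate loci is uncertain. The 5 peaks of a cluster on chromosome 1, in no protein-coding gene and nearest to the starts of RUNX3 and SYF2, had a median ratio of 2.42 and the other peaks of that span 1.43.

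Among gene lists of the inflammatory response, few genes had one of these peaks. Of all protein-coding genes 4.27% had a peak of the set in their body or within 10 kb. Of 17 inflammatory fibroblast markers 2 did, CXCL5 and IL11. None of 12 NF-kB subunits and inhibitors, 5 CEBP factors, 10 RUNX and TEAD factors, 18 metalloproteinases, 18 interferon response genes, 13 histone deacetylases, 18 WNT and BMP signals, 14 gut mesenchyme factors, 7 universal fibroblast markers or 5 transcription factors of inflammatory fibroblasts did. One gene each did among 10 contractile stroma markers (MYLK), 10 receptors of the cytokine mix (IL6ST), 14 AP-1 factors (BATF), 11 genes of the STAT3 pathway (TYK2), 17 collagens (COL8A1) and 15 neuronal genes (RBFOX1). No marker gene of fibroblasts, epithelium, endothelium, leukocytes, glia and neurons or smooth muscle had one. With lists this short, a count of 0 or 1 is near what the share over all genes gives, and nothing particular to a list was read from it.

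CXCL5, a chemokine that attracts neutrophils, had the strongest of these listed peaks, at its start (chr4:73998149-73999058). It had 2.13, 2.72 and 3.41 CPM in unstimulated, 4.32, 5.06 and 7.70 CPM in DMSO and 4.89, 5.92 and 8.16 CPM in belinostat libraries. All 12 conditioned libraries lay above the unstimulated ones, and the belinostat libraries overlapped the DMSO libraries at a slightly higher level. BATF encodes a factor of the AP-1 family, and its intronic peak (chr14:75542038-75543234) had 1.76, 1.95 and 2.00 CPM in unstimulated, 2.52, 2.93 and 6.69 CPM in DMSO and 3.22, 4.56 and 6.01 CPM in belinostat libraries.

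IL6ST encodes gp130, the signalling subunit that OSM and IL-6 receptors share. The peak beyond the gene (chr5:55929921-55930366) had 0.352, 0.742 and 0.848 CPM in unstimulated, 1.12, 1.67 and 2.08 CPM in DMSO and 0.979, 1.09 and 1.52 CPM in belinostat libraries. MYLK encodes the kinase of myosin light chains, and its intronic peak (chr3:123779861-123780082) had 0.412, 0.567 and 0.989 CPM in unstimulated, 1.079, 1.25 and 1.61 CPM in DMSO and 1.36, 2.23 and 3.52 CPM in belinostat libraries. These are weak peaks of 142 and 162 counts in all, in which single counts move the order of libraries. The peak nearest IL11, a cytokine of the IL-6 family, overlapped GARIN5B and had 113 counts, that at the kinase gene TYK2 103, that in COL8A1, a collagen of basement membranes, 126, and that in the splicing factor gene RBFOX1 106. Their ratios were 2.98, 2.77, 2.30 and 3.09. None of the peaks in this paragraph met the rule with TMM, with TMM over the weaker peaks or with loess.

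Among the 304 peaks of the set centred within 3 kb of an annotated start, those at CXCR2, TNIP2 and HRH1 are named here after their values were seen. They were picked by theme, and how many of the 304 lay at inflammatory genes was not counted. No excess of such genes can therefore be read from them. The HRH1 peak is centred 2181 bases from the nearest start of its gene. The receptor of neutrophil chemokines CXCR2 had a peak (chr2:218129801-218130174) with 1.13, 1.90 and 2.28 CPM in unstimulated, 3.22, 4.52 and 5.74 CPM in DMSO and 4.06, 4.83 and 5.49 CPM in belinostat libraries. TNIP2, a regulator of NF-kB signalling, had one (chr4:2745890-2746827) with 2.47, 2.60 and 2.88 CPM in unstimulated, 4.01, 5.13 and 6.97 CPM in DMSO and 4.64, 5.76 and 7.62 CPM in belinostat libraries. HRH1, a histamine receptor, had one (chr3:11223449-11224252) with 1.0988, 1.52 and 1.92 CPM in unstimulated, 3.70, 4.42 and 5.40 CPM in DMSO and 2.35, 3.23 and 4.64 CPM in belinostat libraries. In all 3 the conditioned groups overlapped.

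By position, of the 1310 peaks 23.2% were centred within 3 kb of an annotated start, 39.5% in introns, 3.82% in exons and 33.4% between genes. Over all peaks with at least 100 counts these shares were 31.6%, 39.6%, 3.29% and 25.6%. At like counts the shares near starts lay closer together, at 21.3% against 22.6% in the weakest of 5 bands of counts, 22.8% against 24.1% and 25.1% against 26.5% in the next, and 32% against 30.1% in the one after, but at 23.8% against 47.9% with 500 counts or more. Within 5 Mb of a chromosome end lay 351 peaks, or 26.8%, against 13.5%, and the share of the 88 peaks of the mirrored rule was 7.95%. By chromosome, the share of peaks with at least 100 counts that met the rule ran from 0.442% on chromosome 6 to 1.13% on chromosome 22.

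By sequence the peaks were richer in GC. Their median GC content was 55.6%, against 49.5% over all peaks with at least 100 counts and 42.2% under the mirrored rule. When those 181571 peaks were put into 10 groups of equal size by GC, the share that met the rule was 0.182% in the lowest group, 1.44% in group 8 (GC of 55.9% to 59.4%) and 0.567% in the highest. The median log2 fold change of DMSO over unstimulated libraries, over all peaks of a GC group, was -0.27 in the lowest, 0.22 in group 8 and -0.25 in the highest, so that whole GC groups differed and not only the peaks that met the rule. The CTCF motif stood in 3 of the 1310 central windows, or 0.229%, against 1.66% over all peaks with at least 100 counts. The part of GC content, of the distance to chromosome ends and of peak strength in the choice of these peaks was not tested.

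These features changed with peak strength. The 658 weakest peaks of the set, with 100 to 149 counts, held the AP-1 word in 8.97% and the CEBP word in 4.71%, against 14.6% and 9.60% over all peaks of that strength. In the 42 strongest, with 500 counts or more, the shares were 21.4% and 19.0%, against 17.3% and 10.5%. The FOX word was in 14.3% of the strongest against 5.53% of all peaks of that strength. Only 9.52% of the strongest lay within 5 Mb of a chromosome end, against 11.2%, and their median GC content was 50.1% against 51.2%. With 42 peaks a share of 21.4% is 9 peaks, so that these are descriptions of few sites.

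**Figure D4:**
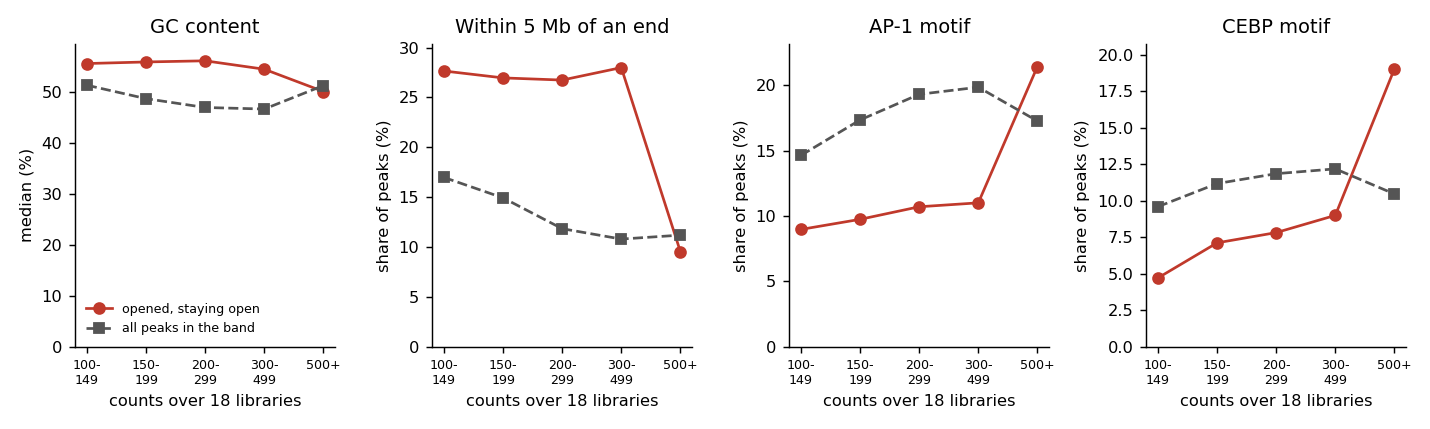
Median GC content, share within 5 Mb of a chromosome end, and shares with the AP-1 and CEBP words in the central 200 bases (y axes, in percent), by counts summed over 18 libraries (x axis, 5 bands). Circles are the 1310 peaks of the set, with 658, 267, 243, 100 and 42 peaks per band, and squares all peaks of the band. The set lies below all peaks for both words in the 4 bands under 500 counts and above them at 500 or more, where the shares are 21.4% and 19.0%.

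Whether belinostat changed the peaks of the set was tested by comparing the belinostat with the DMSO libraries with edgeR's quasi-likelihood test, fitted over all 334857 peaks and adjusted by Benjamini-Hochberg over all of them. Of the 1310 peaks, 9 (0.687%) were called lower after belinostat at an adjusted p under 0.05 and 0 were called higher. The background over all peaks was 1.75% lower and 0.607% higher. Without adjustment, p was under 0.05 for 44 lower and 63 higher peaks, and DESeq2 called 8 lower and 0 higher. The shares lie below the background of all peaks, and that of all peaks with at least 100 counts, 3.18% lower and 0.784% higher. Neither background was matched for counts, and the set had a median of 149 counts against 233 over peaks with at least 100. The median standard error of this log2 fold change over all peaks of a band was 0.34 at 100 to 149 counts and 0.15 at 500 or more. A call is thus harder to reach in weak peaks.

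The rule itself kept out peaks that fell far after belinostat, since each belinostat library had to stay above the unstimulated ones. The median log2 fold change, belinostat minus DMSO, was 0.09 over the 1310 peaks, with 503 below 0 and 807 above, and the middle 50% of peaks between -0.12 and 0.29. It was 0.01 over all peaks and -0.04 over those with at least 100 counts. The median standard error of a peak was 0.28 on the same scale, so that most single peaks could not be told apart from no change, nor from a change of that size. Under TMM over the weaker 50% of peaks the median of the set turned to -0.05 and that of all peaks to -0.12, while the set stayed above all peaks.

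For comparison, of the 88 peaks of the mirrored rule 34 (38.6%) were called lower still after belinostat and 0 higher. Those peaks had a median of 483.5 counts against 149 in the set, and their rule kept out peaks that belinostat raised above the lowest unstimulated library. The contrasts that the rule used give for the set 1157 peaks (88.3%) called higher in DMSO than in unstimulated libraries, against 9.51% of all peaks, and 1233 (94.1%) called higher in belinostat than in unstimulated libraries, against 16.8%. Those counts follow from the rule and nothing was read from them. The median log2 fold change of the set was 1.12 in the first and 1.19 in the second.

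The 9 peaks that were lower after belinostat lay in or nearest to 7 genes, and all stayed above the unstimulated libraries as the rule requires. All 9 are given, whatever their size. The clearest were a neighbouring pair in an intron of LRMDA, a gene involved in melanocyte differentiation. The first (chr10:75612895-75613471) had 1.27, 2.23 and 2.47 CPM in unstimulated, 4.93, 6.17 and 7.99 CPM in DMSO and 2.51, 3.54 and 4.89 CPM in belinostat libraries. It fell by 0.95 ± 0.18 (SE, n = 6 per group) on the log2 scale, with an edgeR adjusted p of 0.000109. The second (chr10:75613619-75614154) had 2.61, 3.08 and 3.72 CPM in unstimulated, 7.19, 8.58 and 10.8 CPM in DMSO and 5.15, 5.47 and 6.01 CPM in belinostat libraries, and fell by 0.77 ± 0.15 (SE) with an edgeR adjusted p of 0.000375. In both no belinostat library reached the lowest DMSO library, and both were called in all 18 fits that left out 1 library.

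The HSD11B1 site at the annotated start fell by 0.51 ± 0.12 (SE, n = 6 per group) on the log2 scale with an edgeR adjusted p of 0.00587, from a mean of 20.1 ± 1.39 CPM in DMSO to 15.1 ± 1.54 CPM in belinostat libraries (SD, n = 6 each). The adjusted p was 0.115 under TMM over the weaker 50% of peaks, where the log2 fold change was larger (-0.62), and under 0.05 in the other 7 alternatives. The intronic HSD11B1 peak had a log2 fold change of -0.25 ± 0.14 (SE) with an edgeR adjusted p of 0.371. Whether these neighbours differ in their change was not tested.

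The site near MAS1L fell by 0.74 ± 0.19 (SE, n = 6 per group) with an edgeR adjusted p of 0.0096, which was 0.068 without DMSO 1 and 0.0518 without belinostat 4. STEAP2 encodes a metalloreductase of iron and copper, and its intronic peak (chr7:90173026-90173533) had 3.48, 4.13 and 5.51 CPM in unstimulated, 10.9, 12.8 and 14.9 CPM in DMSO and 7.47, 9.11 and 11.3 CPM in belinostat libraries. It fell by 0.56 ± 0.14 (SE) with an edgeR adjusted p of 0.00776, and its central bases hold an AP-1, a CEBP and an E-box word. The adjusted p was 0.0931 under TMM over the weaker 50% of peaks, where the log2 fold change was -0.67, 0.0548 without DMSO 6 and 0.0542 without belinostat 5. An intronic peak of the gene ENSG00000285471 on chromosome 17 (chr17:5883933-5884573) had 0.879, 1.18 and 1.73 CPM in unstimulated, 2.68, 3.71 and 7.55 CPM in DMSO and 1.76, 2.71 and 3.22 CPM in belinostat libraries, and fell by 0.84 ± 0.20 (SE) with an edgeR adjusted p of 0.00619, which was 0.089 without DMSO 1. In these 3 the DMSO and belinostat libraries overlapped.

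Both ADGRL2 peaks fell by 0.90 on the log2 scale, with SE of 0.24 and 0.27 and edgeR adjusted p of 0.0191 (chr1:81424082-81424543) and 0.0414 (chr1:81440819-81441170). MEGF11 encodes a membrane protein with EGF-like repeats, and its intronic peak (chr15:66184836-66186600) had 2.13, 2.66 and 3.39 CPM in unstimulated, 7.93, 10.3 and 10.8 CPM in DMSO and 5.48, 7.47 and 9.47 CPM in belinostat libraries. It fell by 0.49 ± 0.15 (SE, n = 6 per group) with an edgeR adjusted p of 0.04. These 3 calls were kept in 14, 11 and 8 of the 18 fits without 1 library, and in 7, 6 and 4 of the 8 other scalings, filters and tests.

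The strongest and the most raised peaks were otherwise not called. After belinostat the log2 fold change was -0.25 ± 0.12 (SE) at PTGS2 with an edgeR adjusted p of 0.275, -0.11 ± 0.12 (SE) at NRCAM with 0.663, 0.19 ± 0.13 (SE) at PTGFR with 0.463 and -0.42 ± 0.15 (SE) at the strongest CPXM2 peak with 0.134. At CXCL5 it was 0.10 ± 0.16 (SE) with an edgeR adjusted p of 0.778. An adjusted p over 0.05 does not show that a level did not move.

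**Figure D5:**
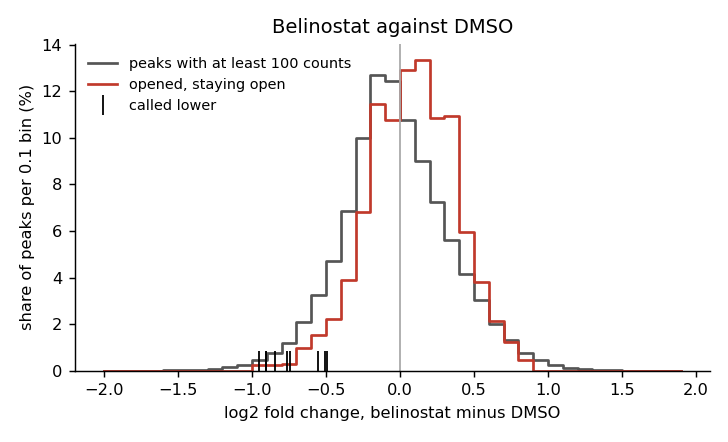
Share of peaks (y axis, percent per bin of 0.1) by log2 fold change, belinostat minus DMSO (x axis), for the 1310 peaks of the set and for all 181571 peaks with at least 100 counts. Ticks mark the 9 peaks called lower, all at -0.49 or below. The set lies slightly to the right of all peaks, with a median of 0.09 against -0.04. These distributions were not matched for counts, and at 100 to 149 counts the medians were 0.11 and 0.07.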

How the data were processed

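Reads were processed by the authors with an ENCODE workflow for ATAC-seq on hg38, without duplicates and mitochondrial reads; they called peaks, merged them over all conditions and counted fragments per consensus peak. The deposited values are these raw counts, without normalization, in 18 libraries of 4661678 to 11352032 counts; all 18 columns were used. The authors normalized on background bins, which a table of counts in peaks does not hold, and TMM factors from the peaks took their place in the tests. The doses printed come from the labels. The paper's methods give another IL-1β dose, while a figure legend gives the same one. Its text names other belinostat concentrations, and its supplement gives a higher one as the default of the study's assays. The belinostat dose behind these libraries is therefore uncertain.

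The members, gene lists, motif words and tests were chosen with earlier results of these data known. CPM used library totals. edgeR 4.0.16 (glmQLFit, glmQLFTest, 1 mean per group over 18 libraries, no covariate) was run over all 334857 peaks; an average log2 CPM filter of -3 removed 0. DESeq2 1.42.0 was an alternative. Gene features came from GENCODE 44 on hg38, and starts count from 1. Named peaks were the 8 of largest ratio with at least 200 counts, the 8 of highest CPM, up to 4 called peaks per direction, peaks at listed genes (at most 2 genes a list) and the 5 genes with the most peaks with those tied; the rest are named as chosen after their values were seen. CPM is not divided by peak width, so it compares libraries and not peaks. The share of repeat-masked bases was not computed, and a withheld marker gene is not reported by name here. Replicate numbers did not pair libraries: same-numbered deviations correlated by -0.195 to 0.134, over 0.1 in 3 of 18 pairs. No libraries were copies of each other, the closest pair differing by a chi-square of 1.02 per peak over 122894 peaks (chi-square p = 4.49e-10). That value is near counting noise, so it does not tell separate cultures from repeated libraries of the same culture.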

Additional observations from a re-analysis of the deposited data

Results flagged for a closer look

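Within each group of 6 libraries, the highest or lowest library was set against the others for the summed CPM and for 43 peaks by the ratio of its gap to the range (Dixon's 95% critical value). Of 132 such groups 8 had a library that stood apart, near the 1 in 20 that chance gives. The CPXM2 peak chr10:123808941-123809231 had one in every group: 0.799 CPM in unstimulated 6 against 0.549 in the next library, 4.21 CPM in DMSO 1 against 2.63, and 3.72 CPM in belinostat 1 against 2.44. The CPXM2 peak chr10:123878703-123879299 had 2.15 CPM in DMSO 6 against 2.62 in the next. The peak beside the centromere of chromosome 16 had 3.06 CPM in unstimulated 6 against 5.89. CXCL5 had 7.70 CPM in DMSO 1 against 5.45, the IL6ST peak 1.52 CPM in belinostat 4 against 1.14, and the BATF peak 1.76 CPM in unstimulated 4 against 1.92.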

How the results depend on the processing

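The number of peaks that met the rule, 1310, moved with most choices: 489 with TMM-scaled totals, 34 with TMM over the weaker 50% of peaks, 319 with loess-adjusted CPM, 2471 with at least 50 counts, 385 with at least 200 counts, 460 at a ratio of at least 3, 4249 with the DMSO libraries alone and 5533 with the belinostat libraries alone, and 1470 at a ratio of at least 1.5. Leaving out 1 library gave 1136 to 2324. The number called lower after belinostat, 9, was 6 to 9 under the other scalings, tests and filters (7 with TMM over the weaker 50% of peaks, 6 of them shared) and 5 to 11 with 1 library left out. All 5 without DMSO 1, 8 of the 11 without DMSO 5 and 5 of the 9 without belinostat 4 were among the 9. The 0 called higher became 2 with library totals, 2 with loess offsets and 3 with an average log2 CPM over 0, and 0 to 1 with 1 library left out. With the replicate number as a block 9 were lower and 0 higher, and the median log2 fold change was 0.09; the numbers are only names here. That median, 0.09, was 0.05 to 0.12 with 1 library left out, 0.18 with library totals, 0.14 with an average log2 CPM over 0, and turned to -0.052 with TMM over the weaker 50% of peaks, by the alternative's own construction, which moved all peaks to -0.12. DESeq2 gave an adjusted p to 684 of the 1310. The promoter share was 12.7% within 1 kb, and the AP-1 share 16.0% in the central 400 bases and 19.8% over whole peaks. On TMM-scaled totals 122 of 129 group means of the peaks examined one by one moved by less than 1 SD. Depth limits the weak peaks, whose median of 149 counts over 18 libraries leaves few counts per library.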
